A study of Homo sapiens with 18 samples.

Results

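The genes described here are 43 E2F targets and DNA replication genes, listed by name and grouped by their known roles. The list was drawn up with earlier results of these data known. All 43 had exactly 1 probe set with a single gene symbol on the array, out of 22392 genes measured. They comprised 5 E2F factors, 5 genes for cyclins, their kinase CDK2 and the activating phosphatase CDC25A, 10 origin licensing genes, 14 genes for origin firing and replication forks, 4 genes for nucleotide supply and 5 genes for chromatin and histone supply. Every member lay above the median log2 expression of all genes (4.155), with member means from 5.02 to 10.3.

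Expression was measured on 18 microarrays of PNT1A cells, a human prostate epithelial line immortalised with SV40, whose large T antigen is known to bind the RB family proteins and p53. The irradiated cells lay in culture flasks inside a phantom of the human body while a prostate radiotherapy plan was delivered. The axis group sat in the prostate location and received 70 Gy. The intestine group lay 15 cm from the axial plane and received 0.43 Gy, the lung group 35 cm and 0.07 Gy, the thyroid group 52 cm and 0.03 Gy, and the brain group 74 cm and 0.03 Gy. These names are places in the phantom, and all flasks held the same prostate line. Controls were sham-irradiated (0 Gy) and stood at room temperature in parallel. The paper gives them no place in the phantom, so they may differ from the other groups in placement as well as dose. Each of the 6 groups had 3 arrays, from biological repeats. The irradiated and control cells were detached, plated again and grown for 24 h before RNA was isolated, so the RNA came from the cells recovered at that time. A culture gives bulk RNA, in which a changed share of cells in S phase and a changed amount of RNA per cell cannot be told apart.

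In non-dividing cells, the RB family proteins hold E2F factors at the promoters of genes for DNA replication and keep them silent. Cyclin-dependent kinases, when active, phosphorylate the RB proteins and free the activators E2F1, E2F2 and E2F3, and the replication genes are then transcribed late in G1 and in S phase. E2F7 and E2F8 are atypical family members that repress many of the same targets later in S phase, and are themselves E2F targets. After DNA damage, p53 induces CDKN1A, which encodes the CDK inhibitor p21.

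The promoters of 38 of the 43 members were found in the RefSeq promoter table of GRCh38.p14, as 300 bases from 250 before to 50 after the annotated start. An E2F site was searched on both strands as TTTCCCGC, TTTGGCGC, TTTCGCGC or TTTGCCGC, of which TTTGGCGC and TTTCGCGC can overlap on opposite strands. It was present in 21 of the 38 member promoters (55.3%), in 908 of all 27305 promoters of the same length (3.33%) and in 659 of the 15487 promoters of genes measured here (4.26%). The list names E2F targets, so a higher share among members is partly built in. By the adjusted p in the axis, a match was in 14 of 24 higher members, 2 of 3 lower and 5 of 11 not called. The 4 promoters below were chosen by array result and number of matches. E2F1 and MCM7 each had 2 matches and were higher in the axis. MCM6 had 4 matches and was lower in the axis. E2F7 had the largest rise and no match in this window. All 4 promoters are written 5′ to 3′ on the gene's strand, with matches to the E2F site in capitals. E2F1 is at chr20:33686336-33686635, MCM7 at chr7:100101348-100101647, MCM6 at chr2:135876394-135876693 and E2F7 at chr12:77065520-77065819, all on the minus strand.
E2F1: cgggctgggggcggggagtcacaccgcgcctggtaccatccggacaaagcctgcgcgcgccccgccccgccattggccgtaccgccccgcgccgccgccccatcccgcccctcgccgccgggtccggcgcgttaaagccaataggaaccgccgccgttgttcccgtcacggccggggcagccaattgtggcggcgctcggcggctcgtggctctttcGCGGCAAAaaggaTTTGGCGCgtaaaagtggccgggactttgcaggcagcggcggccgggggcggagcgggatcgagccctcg
MCM7: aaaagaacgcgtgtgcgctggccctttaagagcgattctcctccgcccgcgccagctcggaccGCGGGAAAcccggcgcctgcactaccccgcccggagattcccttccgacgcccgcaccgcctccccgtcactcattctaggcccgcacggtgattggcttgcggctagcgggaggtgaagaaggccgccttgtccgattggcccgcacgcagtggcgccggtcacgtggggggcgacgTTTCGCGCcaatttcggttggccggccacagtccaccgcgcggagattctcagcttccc
MCM6: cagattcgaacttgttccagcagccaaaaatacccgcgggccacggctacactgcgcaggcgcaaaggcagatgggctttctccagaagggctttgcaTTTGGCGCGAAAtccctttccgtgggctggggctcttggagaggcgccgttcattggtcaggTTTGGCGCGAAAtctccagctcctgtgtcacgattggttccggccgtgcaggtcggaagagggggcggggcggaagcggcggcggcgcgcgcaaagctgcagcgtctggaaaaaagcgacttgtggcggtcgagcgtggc
E2F7: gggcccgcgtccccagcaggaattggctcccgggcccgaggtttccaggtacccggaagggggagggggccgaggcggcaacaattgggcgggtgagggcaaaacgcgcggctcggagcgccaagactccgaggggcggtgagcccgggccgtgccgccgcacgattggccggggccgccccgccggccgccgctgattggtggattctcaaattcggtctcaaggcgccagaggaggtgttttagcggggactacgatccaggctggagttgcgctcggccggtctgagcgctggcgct
In E2F1 the matches began at positions -33 and -20 relative to the annotated start. In MCM7 they began at -187 and -9. The MCM6 promoter held 2 copies of the stretch TTTGGCGCGAAA, in which TTTGGCGC on one strand overlaps TTTCGCGC on the other. Only 5 members (E2F1, MCM2, MCM3, MCM6 and MCM7) had 2 or more matches, against 37 other symbols in the whole table. The 2 matches in MCM2 began at positions 2 and 6 and are TTTCGCGC on opposite strands, overlapping in a single stretch. By role, a match was found in 3 of 4 E2F factors, 6 of 8 licensing genes, 8 of 14 firing and fork genes, 2 of 5 chromatin genes, 1 of 4 nucleotide genes and 1 of the 3 found among the cyclin, CDK2 and CDC25A genes, which was CDC25A. The CCAAT box (CCAAT on either strand) was in 60.5% of member promoters and 35.7% of all promoters. The CHR element of mitotic genes (TTTGAA on either strand) was in 5.26% of member promoters and 15.4% of all promoters. A match describes the sequence only, and no binding was measured.

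Array medians lay between 4.07 and 4.22 on the log2 scale, and the lowest correlation between arrays of the same group was 0.992. Epithelial markers were uneven: across the 18 arrays KRT18 ranged from 6.35 to 6.93, KRT8 from 5.31 to 6.27 and EPCAM from 4.77 to 5.30, while KRT14 (3.30 to 3.89) and the prostate antigen gene KLK3 (3.44 to 4.12) lay below the median of all genes. The leukocyte gene PTPRC (2.34 to 2.75), the T cell gene CD3E (2.62 to 2.97) and the endothelial gene VWF (2.91 to 3.34) were lower still, and the collagen gene COL1A1 reached 6.83 to 8.80. Levels of different probe sets are not on a common scale, so these values only place each gene against the array. Among the 15 arrays outside the axis, intestine replicate 3 had the lowest mean over the members: 39 of 43 members were below the control mean on it, and it was the lowest of the 15 arrays for 16 members. Control replicate 3 had the highest mean, with 8 members below the control mean.

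**Figure D1:**
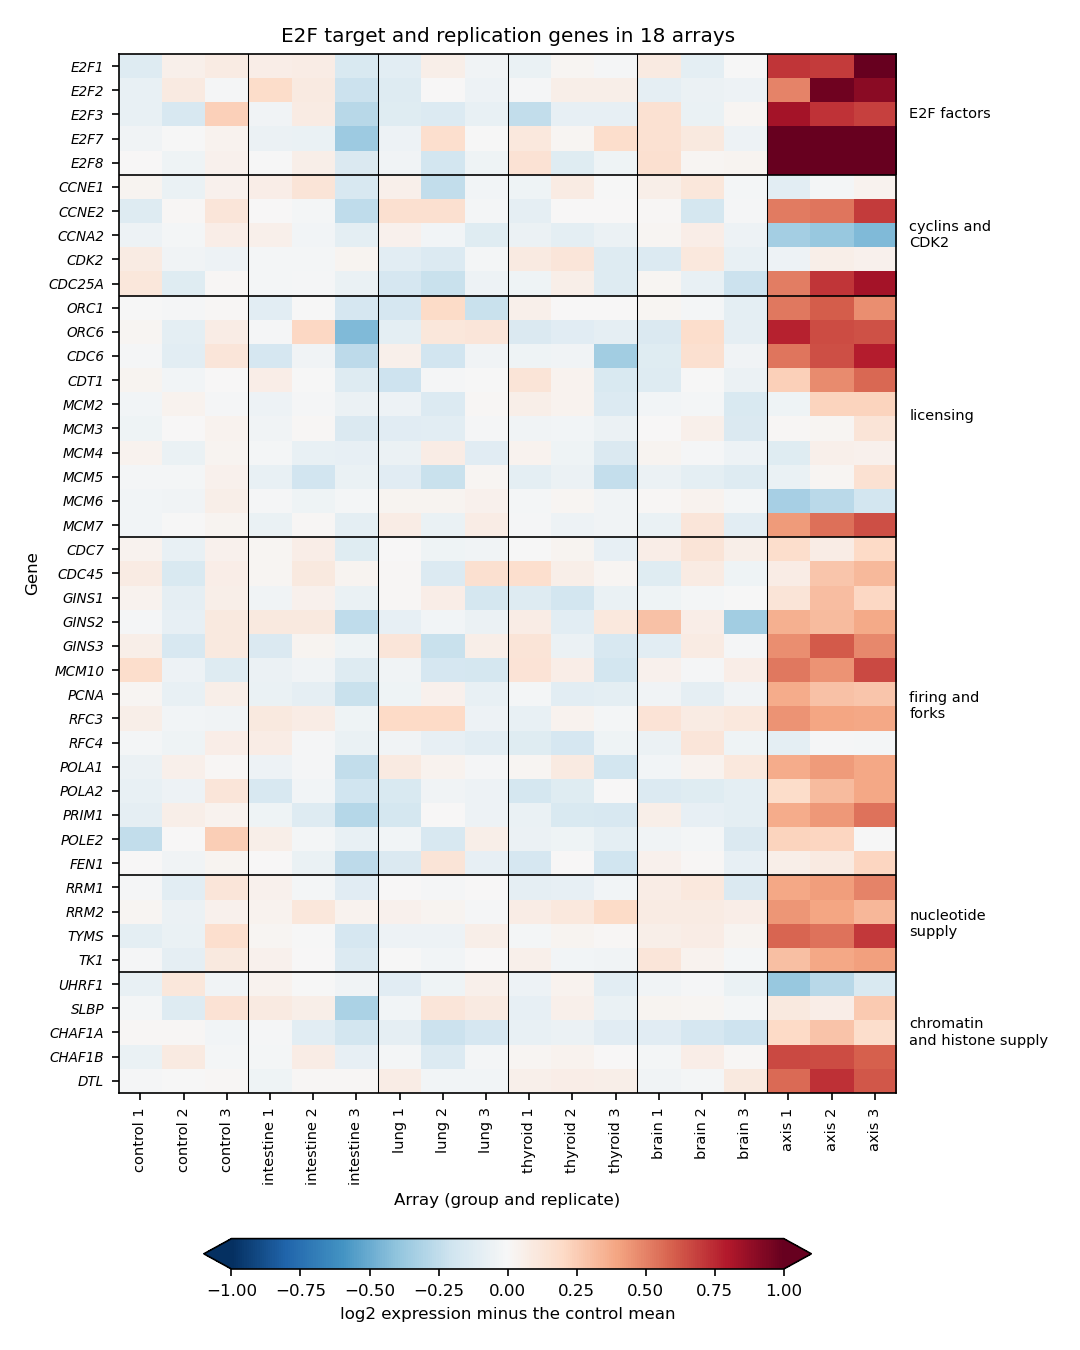
Log2 expression of the 43 members minus the mean of the 3 control arrays, for each gene (rows, grouped by role) and array (columns, by group and replicate); the colour scale is cut at -1 and 1. The 3 axis columns are red for most genes and blue for CCNA2, MCM6 and UHRF1, while intestine replicate 3 is the bluest column outside the axis, with 39 of 43 genes below the control mean.

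The question of the axis comparison was how cells in the field differ from sham-irradiated cells. Of the 43 members, 12 were higher in the axis by both thresholds, a fold change of more than 1.5 and an adjusted p below 0.05, and 0 were lower. Over all genes, 4.39% were higher and 2.60% were lower by the same rule. The 12 were all 5 E2F factors, CCNE2, CDC25A, ORC6, CDC6, TYMS, CHAF1B and DTL. By the adjusted p alone, 26 members rose, 3 fell (CCNA2, MCM6 and UHRF1) and 14 did not pass, beside 11.2% of all genes higher and 9.18% lower. The median log2 fold change of the 43 members was 0.39 and that of all genes 0.007, and 37 members had a positive value. Adjusted p-values are from limma with Benjamini-Hochberg adjustment over all 22392 genes, and they measure the spread between the biological repeats. On the arrays themselves, all 3 axis values lay above all 15 others for 28 members, below all 15 for 3 members (the same CCNA2, MCM6 and UHRF1), and overlapped them for 12. Over all genes, the corresponding shares were 11.7% above and 7.51% below. The 12 that overlapped were CCNE1, CDK2, MCM2, MCM3, MCM4, MCM5, CDC7, CDC45, RFC4, POLE2, FEN1 and SLBP.

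**Figure D2:**
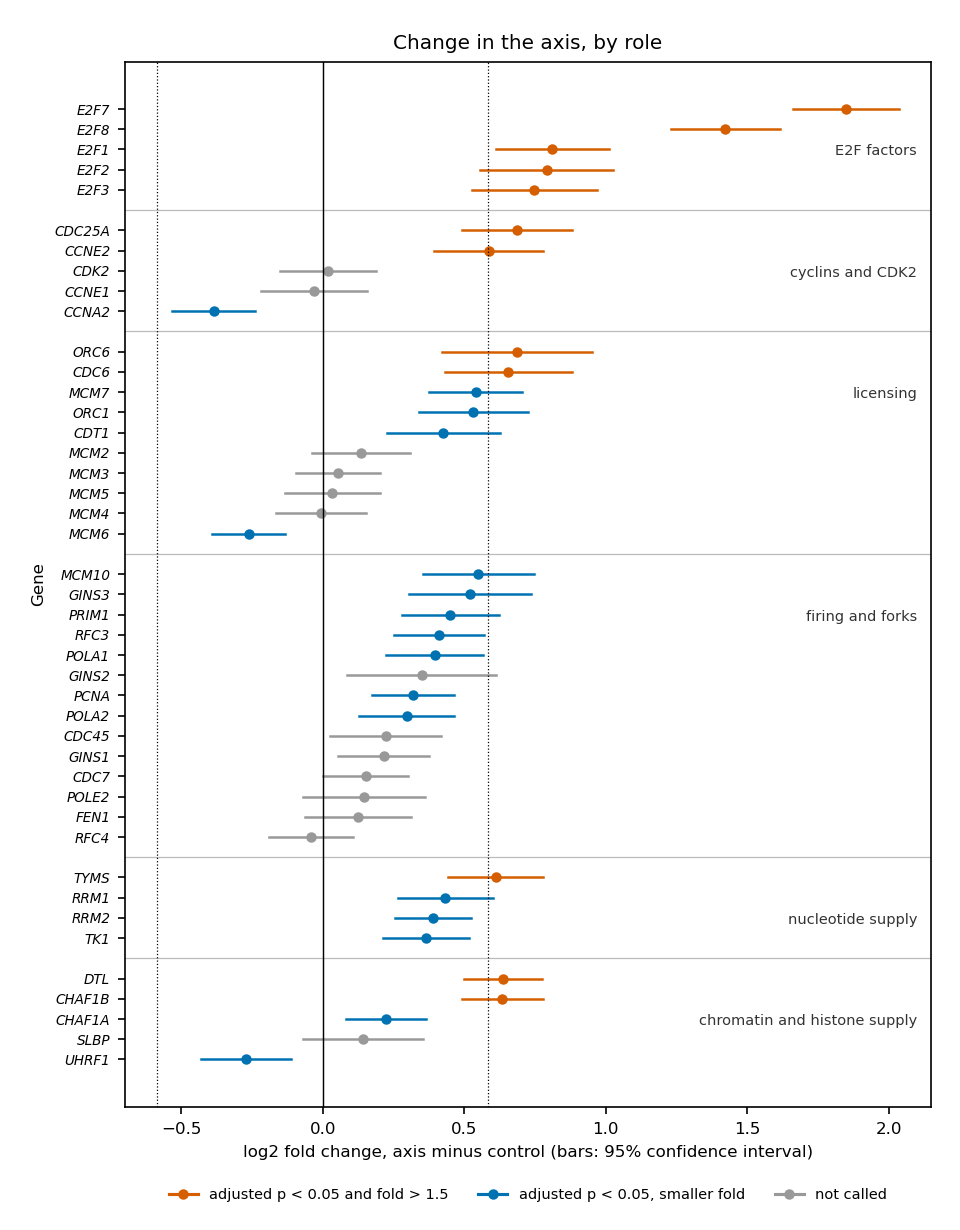
Log2 fold change of each member in the axis against control, with its 95% confidence interval, ordered within each role; dotted lines mark a 1.5-fold change and the colours the thresholds passed. The E2F factors lie farthest right, with E2F7 at 1.85 and E2F8 at 1.42, and the MCM subunits run from 0.54 for MCM7 to -0.26 for MCM6.

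All 5 E2F factors of the set rose in the axis, with a median log2 fold change of 0.81, and the repressors E2F7 and E2F8 rose most. The family members E2F4, E2F5 and E2F6, outside the set, showed no such rise. Their means in controls and in the axis were 8.295 and 8.366 for E2F4, 2.775 and 2.715 for E2F5, and 5.160 and 4.984 for E2F6. Within the set, E2F7 was at 7.28, 7.30 and 7.35 in the control arrays and at 9.21, 9.11 and 9.16 in the axis arrays, a log2 fold change of 1.85 (SE 0.089, adjusted p = 2.42e-11, 3.60-fold). E2F8 was at 7.22, 7.18 and 7.27 in controls and at 8.48, 8.77 and 8.69 in the axis (1.42, SE 0.091, adjusted p = 1.22e-09, 2.68-fold). The lowest axis value of E2F7 and of E2F8 was more than 1 log2 unit above the highest value of the same gene in any other array. These were also the only members that passed when the test was made against a fold of 1.5 instead of against no change (adjusted p = 6.97e-09 and 2.40e-06).

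The activators rose by less. E2F1, which drives S phase entry, was at 6.59, 6.77 and 6.80 in controls and at 7.44, 7.42 and 7.74 in the axis (log2 fold change 0.81, SE 0.095, adjusted p = 3.38e-06). E2F2 was at 4.83, 4.99 and 4.89 in controls and at 5.40, 5.87 and 5.80 in the axis (0.79, SE 0.11, adjusted p = 2.85e-05). E2F3 was at 6.68, 6.59 and 6.99 in controls and at 7.59, 7.48 and 7.44 in the axis (0.75, SE 0.10, adjusted p = 2.71e-05). For none of these genes did an axis array overlap any of the other 15 arrays. Without axis replicate 1 the median of the 5 factors was 0.94.

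**Figure D3:**
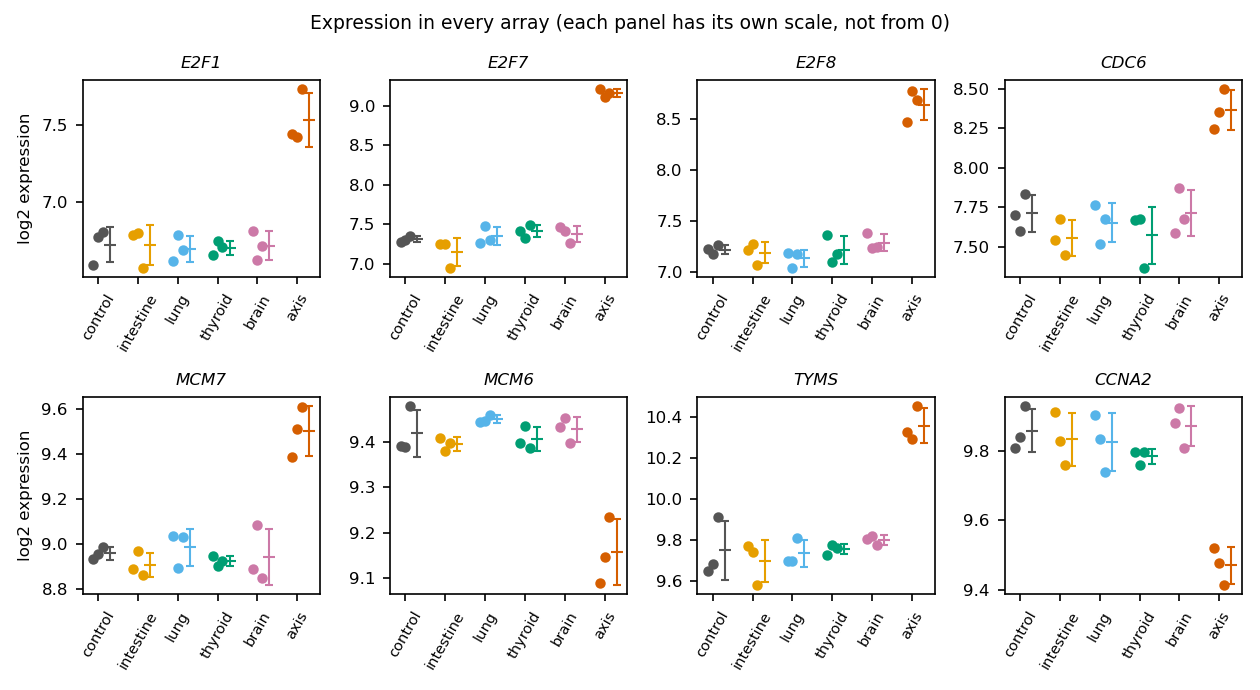
Log2 expression of 8 members in each of the 18 arrays, as points by group, with the group mean and SD beside them; each panel has its own vertical scale. E2F1, E2F7, E2F8, CDC6, MCM7 and TYMS are higher in the 3 axis arrays than in the 15 others, and MCM6 and CCNA2 are lower.

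The cyclin genes moved in different directions. CCNE2, which encodes the G1/S partner cyclin E2 of CDK2, was at 7.24, 7.37 and 7.48 in controls and at 7.89, 7.90 and 8.06 in the axis (log2 fold change 0.59, SE 0.091, adjusted p = 8.32e-05). Its paralogue CCNE1 was at 6.66, 6.57 and 6.67 in controls and at 6.53, 6.61 and 6.67 in the axis, with a difference of -0.03 (95% CI -0.22 to 0.16). The groups did not overlap for CCNE2 and did for CCNE1. CCNE2 sat at the fold threshold, and its value fell to 0.52 without control replicate 1 and to 0.53 without axis replicate 3.

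CDC25A, the phosphatase that activates CDK2, was at 6.57, 6.34 and 6.47 in controls and at 6.97, 7.17 and 7.30 in the axis (0.69, SE 0.092, adjusted p = 1.58e-05, 1.61-fold). CCNA2, the cyclin of S phase and G2, fell: it was at 9.81, 9.84 and 9.93 in controls and at 9.52, 9.48 and 9.41 in the axis (-0.39, SE 0.070, adjusted p = 0.000397). CDK2 itself was at 8.37, 8.25 and 8.24 in controls and at 8.24, 8.34 and 8.33 in the axis, a difference of 0.018 (95% CI -0.15 to 0.19). All axis values of CDC25A were above, and all of CCNA2 below, the rest of the arrays, while those of CDK2 lay within them.

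Licensing loads the MCM2 to MCM7 helicase onto origins in G1 with the origin recognition complex, CDC6 and CDT1. The loading genes of the set (ORC1, ORC6, CDC6 and CDT1) rose in the axis, the helicase subunits were split, and the median of the 10 genes was 0.28. ORC6, a subunit of the origin recognition complex, was at 7.82, 7.70 and 7.87 in controls and at 8.56, 8.45 and 8.43 in the axis (log2 fold change 0.69, SE 0.13, adjusted p = 0.000435). CDC6 was at 7.70, 7.60 and 7.83 in controls and at 8.24, 8.36 and 8.50 in the axis (0.66, SE 0.11, adjusted p = 0.000138). Both were separated from all other arrays. ORC1, the ATPase subunit of the same complex, rose by 0.53 (adjusted p = 0.000222), and CDT1 by 0.43 (adjusted p = 0.00244), each under 1.5-fold. The other origin recognition complex genes, outside the set, did not pass: ORC2 was at -0.064, ORC3 at -0.27, ORC4 at 0.063 and ORC5 at 0.14 (adjusted p = 0.798, 0.0570, 0.777 and 0.188).

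Of the 6 helicase subunits, MCM7 rose, MCM6 fell and the other 4 did not pass the test. MCM7 was at 8.93, 8.96 and 8.99 in controls and at 9.38, 9.51 and 9.61 in the axis (0.54, SE 0.078, adjusted p = 3.49e-05). MCM6 was at 9.39, 9.39 and 9.48 in controls and at 9.09, 9.15 and 9.23 in the axis (-0.26, SE 0.062, adjusted p = 0.00419). Their 95% intervals, 0.38 to 0.70 and -0.39 to -0.13, did not overlap, although both proteins are parts of the same ring. MCM4 was at 9.72, 9.61 and 9.71 in controls and at 9.56, 9.73 and 9.73 in the axis, a difference of -0.0069 (95% CI -0.16 to 0.15). The differences of MCM2, MCM3 and MCM5 were 0.13, 0.053 and 0.034. MCM7 was past 1.5-fold without axis replicate 1 (0.60), and both MCM7 and MCM6 have E2F site matches in the promoters printed above.

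None of the 14 firing and fork genes reached 1.5-fold, but 7 rose by the adjusted p, 0 fell, and 13 of 14 had a positive value, with a median of 0.31. Of all genes, 4.39% were higher by both thresholds, and 11.2% rose and 9.18% fell by the adjusted p alone. With 14 genes, counts of 0 cannot be told from the shares of 4.39% and 9.18%. Largest was MCM10, which helps to activate the loaded helicase: it was at 7.44, 7.22 and 7.14 in controls and at 7.80, 7.72 and 7.93 in the axis (log2 fold change 0.55, adjusted p = 0.000215). Its value passed 1.5-fold without control replicate 1 (0.64) and without axis replicate 2 (0.60). GINS3, of the complex that joins the helicase at firing, rose by 0.52 (adjusted p = 0.000901), while GINS1 (0.22, adjusted p = 0.0574) and GINS2 (0.35, adjusted p = 0.0575) missed the threshold.

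Of the polymerase alpha-primase complex, which starts each new strand, 3 subunit genes rose: PRIM1 by 0.45 (adjusted p = 0.000395), POLA1 by 0.39 (adjusted p = 0.00132) and POLA2 by 0.30 (adjusted p = 0.0108). The remaining subunit gene, PRIM2, which is outside the set, did not pass (0.18, adjusted p = 0.0971). POLA2 lost its call without control replicate 1 (adjusted p = 0.0563) or axis replicate 3 (adjusted p = 0.0638). Of the clamp loader genes, RFC3 rose by 0.41 (adjusted p = 0.000497) and RFC4 was at 8.52, 8.50 and 8.61 in controls and 8.45, 8.53 and 8.52 in the axis (-0.042, 95% CI -0.19 to 0.11). The other clamp loader genes, outside the set, also rose: RFC2 by 0.49, RFC5 by 0.41 and RFC1 by 0.25 (adjusted p = 0.00131, 0.00107 and 0.0215). PCNA, the sliding clamp and a known p53 target, was at 9.89, 9.80 and 9.93 in controls and at 10.24, 10.17 and 10.15 in the axis (0.32, adjusted p = 0.0021), with no overlap. The firing kinase gene CDC7 (0.15), the helicase cofactor CDC45 (0.22), the polymerase epsilon subunit POLE2 (0.15) and the flap nuclease FEN1 (0.12) did not pass. The other polymerase epsilon genes, outside the set, had higher means in the axis than in controls. These were 7.595 against 7.161 for POLE, 7.204 against 6.934 for POLE3 and 5.135 against 4.918 for POLE4. Without axis replicate 1, CDC45 and GINS1 passed (adjusted p = 0.0449 and 0.0439).

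All 4 nucleotide supply genes rose, with a median log2 fold change of 0.41. TYMS, the thymidylate synthase, was at 9.65, 9.68 and 9.92 in controls and at 10.33, 10.30 and 10.46 in the axis (0.61, SE 0.080, adjusted p = 1.26e-05, 1.53-fold). Its fold change went under 1.5 without control replicate 1 (0.56), control replicate 2 (0.58) or axis replicate 3 (0.56). TK1, the thymidine kinase, had the smallest change of the class and was at 9.76, 9.69 and 9.87 in controls and at 10.07, 10.16 and 10.18 in the axis (0.36, adjusted p = 0.000971). The ribonucleotide reductase subunits RRM1 and RRM2 rose by 0.43 (adjusted p = 0.000437) and 0.39 (adjusted p = 0.000137). The axis arrays were above the other 15 for each of the 4 genes.

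Chromatin and histone supply was mixed. DTL, the substrate receptor of the ligase that destroys CDT1 at PCNA, was at 10.13, 10.13 and 10.15 in controls and at 10.70, 10.86 and 10.75 in the axis (log2 fold change 0.64, SE 0.066, adjusted p = 7.58e-07). CHAF1B, a subunit of the histone chaperone CAF-1, was at 8.22, 8.38 and 8.27 in controls and at 8.95, 8.94 and 8.88 in the axis (0.63, SE 0.068, adjusted p = 1.15e-06). Both were separated from all other arrays. CHAF1A, of the same chaperone, rose by 0.22 (adjusted p = 0.0225), a call lost on leaving out any control array or axis replicate 2 (highest adjusted p = 0.104).

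UHRF1, which guides DNA methylation onto new strands, fell: it was at 8.92, 9.10 and 8.96 in controls and at 8.61, 8.71 and 8.84 in the axis (-0.27, SE 0.076, adjusted p = 0.0139). Its adjusted p was 0.0868 without control replicate 2 and 0.0807 without axis replicate 1. SLBP, the histone stem-loop binding protein, was at 8.77, 8.66 and 8.93 in controls and at 8.89, 8.85 and 9.05 in the axis (0.14, adjusted p = 0.415), and its groups overlapped.

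**Figure D4:**
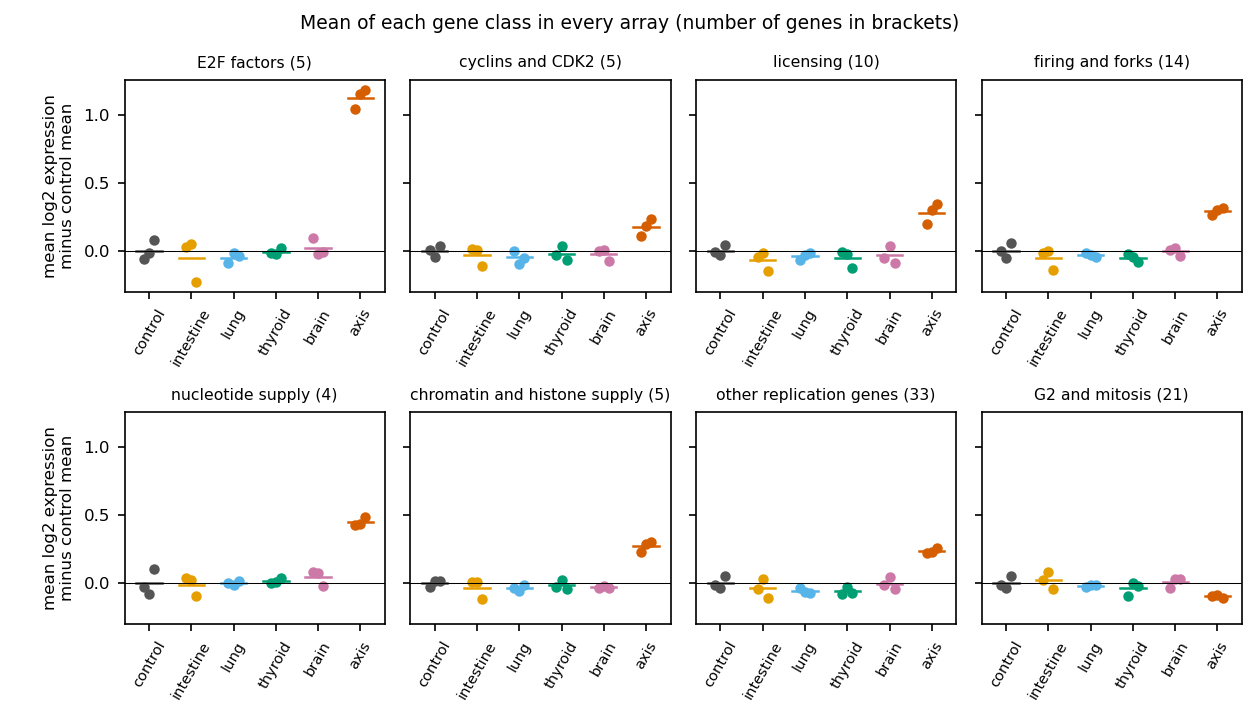
Mean log2 expression of the genes of each role minus the control mean, in each of the 18 arrays (points) with the group mean (line); the number of genes is in brackets. The 3 axis arrays are above the 15 others for each of the 6 roles, by the most for the E2F factors (1.04 to 1.18) and the least for cyclins and CDK2 (0.11 to 0.23), and the G2 and mitosis genes lie at -0.11 to -0.09.

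Averaged over the members, the axis arrays lay 0.33 to 0.43 above the control mean, against -0.14 to 0.05 for the 15 other arrays. The E2F factors stood at 1.04 to 1.18 against -0.23 to 0.09. The licensing genes stood at 0.19 to 0.35 against -0.15 to 0.04, and the firing and fork genes at 0.26 to 0.32 against -0.14 to 0.05. Nucleotide supply stood at 0.43 to 0.48, against -0.10 to 0.11, and chromatin genes at 0.23 to 0.30, against -0.12 to 0.03. The mean over all genes moved by 0.024 in the axis.

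The axis was also compared with the 4 peripheral locations, whose flasks shared the phantom, in a contrast that uses no control array. By both thresholds 13 members were higher, the 12 named above and MCM10, and 0 were lower, beside 4.85% and 2.27% of all genes. By the adjusted p alone 29 rose and 3 fell (the same CCNA2, MCM6 and UHRF1), beside 15.8% and 10.4% of all genes. The log2 fold change was 1.84 for E2F7 (SE 0.070), 1.44 for E2F8 (SE 0.072) and 0.59 for MCM10 (SE 0.074), and the median of the members was again 0.39. Several of the 13 sat near the fold threshold. MCM10 went under it without axis replicate 3 (0.53), thyroid replicate 3 (0.56), or intestine replicate 3, lung replicate 2, lung replicate 3 or brain replicate 2 (0.58 each). CCNE2 did so without axis replicate 3 (0.55) or intestine replicate 3 (0.58), TYMS without axis replicate 3 (0.57) and DTL without axis replicate 2 (0.57).

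Related genes outside the set give the setting of these changes. The counts for each list are by the adjusted p alone, by which 11.2% of all genes rose and 9.18% fell. Of 12 measured pocket protein, DREAM and E2F partner genes, 4 rose and 0 fell by the adjusted p, with a median of 0.045. RB1 rose by 0.41 (adjusted p = 0.00051), RBL1 (p107), itself an E2F target, by 0.61 (adjusted p = 0.000445) and the DREAM subunit gene LIN37 by 0.97 (adjusted p = 7.55e-07). RBL2 (p130) was at 7.73, 7.72 and 8.04 in controls and at 7.61, 7.73 and 7.74 in the axis (-0.14, adjusted p = 0.379).

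Of 33 other replication genes, 13 rose and 2 fell (DBF4 and RPA1), with a median of 0.22, beside 26 rising and 3 falling of the 43 members. RRM2B, the p53-induced ribonucleotide reductase subunit, rose by 2.01 (4.03-fold, adjusted p = 6.05e-12): it was at 6.57, 6.48 and 6.70 in controls and at 8.57, 8.53 and 8.69 in the axis. The GINS subunit gene GINS4 rose by 0.89 (adjusted p = 1.94e-07) and GMNN, the inhibitor of CDT1, by 0.72 (adjusted p = 4.20e-06). The other reductase subunit genes, RRM1 and RRM2, had values of 0.43 and 0.39.

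Of 21 G2 and mitosis genes, 7 fell and 2 rose by the adjusted p, with a median of -0.076. By the same rule 9.18% of all genes fell and 11.2% rose. Over the G2 and mitosis genes the axis arrays averaged -0.11 to -0.09 against -0.09 to 0.08 in the others. Past both thresholds were CCNB1 (-0.60, adjusted p = 1.61e-05) and PLK1 (-0.61, adjusted p = 4.64e-06), a mitotic cyclin and a mitotic kinase. Of 9 arrest genes, 4 rose and 2 fell. CDKN1A was at 6.23, 6.30 and 6.32 in controls and at 7.88, 7.97 and 8.01 in the axis (1.67, SE 0.084, adjusted p = 4.56e-11). MDM2 (1.91), GADD45A (2.06) and FBXW7 (2.25) rose too, and CDKN1B, encoding the inhibitor p27, fell (-0.59, adjusted p = 7.52e-05). The epithelial markers KRT5 (-0.73) and KRT19 (-1.10) fell among 3 of 8 markers measured, as did COL1A1 (-1.83). Whether the mix or cycle phase of the recovered cells had a part in the member changes was not tested.

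In the peripheral locations, the question was whether out-of-field doses moved the same genes. None of the 43 members passed an adjusted p under 0.05 in the intestine, lung, thyroid or brain against control, beside 0% of the 22392 genes in each. The comparisons share the same 3 control arrays. By limma's unadjusted p under 0.05, the intestine gave 0 members (3.23% of all genes), the lung 1 (3.63%), the thyroid 0 (4.02%) and the brain 1 (3.58%). The 4 locations pooled against control gave 0 calls (0% of all genes), with 1 member at an unadjusted p under 0.05 (3.47% of all genes). A moderated F test over control and the 4 locations also gave 0 calls among the members and 0% of all genes, and 0 members had an unadjusted p under 0.05, against 3.03% of all genes. The smallest F test p of a member was 0.0658, for E2F7 (adjusted p = 0.9997).

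The sizes of the differences were bounded by the spread. For the intestine, member log2 fold changes ran from -0.16 to 0.062, for the lung from -0.15 to 0.11, for the thyroid from -0.14 to 0.12 and for the brain from -0.16 to 0.11. The widest 95% limits over the members were -0.38 and 0.25 for the intestine, -0.34 and 0.31 for the lung, -0.38 and 0.29 for the thyroid, and -0.30 and 0.27 for the brain. The means of the 5 groups outside the axis spanned a median of 0.12 per member and 0.27 at most, for E2F7. A change of 1.5-fold lay outside the interval of every member in each peripheral location. Smaller changes within those intervals could be present without having been called with 3 arrays a group.

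Most member values were slightly below zero, as were those of all genes. The intestine had a member median of -0.033 (all genes -0.021), the lung -0.033 (-0.017), the thyroid -0.030 (-0.014) and the brain -0.0094 (-0.015). Below zero were 38 members for the intestine, 32 for the lung, 30 for the thyroid and 24 for the brain. These medians rested on single arrays and on the scaling. Without intestine replicate 3 the intestine median was 0.0016. Without control replicate 3 those of the lung, thyroid and brain were -0.0022, -0.0061 and 0.019. With arrays centred on their medians they were 0.0014 for the intestine, -0.028 for the lung, -0.030 for the thyroid and 0.033 for the brain. After quantile normalization they were -0.029, 0.00089, 0.011 and 0.0044, in the same order.

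The members with the largest statistics in each peripheral location show how small the differences were. Because they were picked this way, arrays lying all above or all below the controls cannot show a change by themselves. In the intestine, PRIM1 was at 7.36, 7.28 and 7.12 against 7.32, 7.47 and 7.44 in controls (-0.15, 95% CI -0.33 to 0.018, adjusted p = 0.9998), and the groups overlapped. E2F7 in the intestine was at 7.25, 7.25 and 6.95 against 7.28, 7.30 and 7.35 (-0.16, SE 0.089). All 3 of its intestine arrays were below the controls, replicate 3 the lowest by far.

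In the lung, CHAF1A was at 8.50, 8.37 and 8.42 against 8.60, 8.60 and 8.56 in controls (-0.15, 95% CI -0.30 to -0.014, unadjusted p = 0.0334, adjusted p = 1). Its 3 lung arrays were all below the controls. CDC25A in the lung was at 6.29, 6.24 and 6.41 against 6.57, 6.34 and 6.47 (-0.15, unadjusted p = 0.126). In the brain, CHAF1A was again the leading member, at 8.47, 8.42 and 8.38 (-0.16, SE 0.067, unadjusted p = 0.0257, adjusted p = 1). Both CHAF1A comparisons use the same 3 controls, which differ among themselves by 0.042.

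POLA2 in the brain was at 7.06, 7.07 and 7.09 against 7.12, 7.14 and 7.31 in controls (-0.12, unadjusted p = 0.163). In the thyroid, RRM2 was at 8.88, 8.91 and 8.99 against 8.82, 8.75 and 8.85 (0.12, SE 0.064, unadjusted p = 0.0716, adjusted p = 1). Its thyroid arrays were all above the controls, while MCM5 in the thyroid, at 8.95, 8.99 and 8.81 against 9.02, 9.03 and 9.09, was below them (-0.13, unadjusted p = 0.118).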

How the data were processed

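The deposited values are log2 intensities of 53617 probe sets on 18 Affymetrix Human Gene 2.1 ST arrays. The authors corrected the background, normalised and summarised them with RMA from the affy library, which the submitters' processing notes also name without a version. The labels and the methods name different labelling kits, and no scan batch is given in the sources used here. Probe sets with exactly 1 symbol in the platform annotation (23866) were kept, and the one with the highest mean represented each of 22392 genes. Groups and replicate numbers came from the labels. The lmFit and eBayes steps of limma 3.58.1 (R 4.3.3) were run on all 18 arrays in a single model of the 6 group means, with 12 residual degrees of freedom and Benjamini-Hochberg adjustment over all genes. Calls needed a fold change of more than 1.5 and an adjusted p below 0.05, or the adjusted p alone. No filter on dim genes was applied. The script was tested on simulated data. The members, roles, related lists and motifs were chosen with earlier results of these data known. Per-array values are given for members called in the axis and for the member of each role with the smallest change, and those of CCNE1, CCNA2, MCM6, MCM7, MCM10, PCNA and UHRF1 were added after their values were seen. In each peripheral location the 2 members with the largest statistic are named. Promoters are from RefSeq (GRCh38.p14). Alternatives covered the choice of probe set, centring, quantile normalization, dim genes, array weights, the prior, the groups fitted, the replicate block, the thresholds and leaving out each array.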

Additional observations from a re-analysis of the deposited data

Results flagged for a closer look

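For 13 members the change in the axis differed from the mean change in the 4 peripheral locations, by the contrast between them in the limma fit and past 1.5-fold. The control arrays cancel in this contrast. On the log2 scale the difference was 1.84 for E2F7, 1.44 for E2F8, 0.82 for E2F1, 0.82 for E2F3 and 0.81 for E2F2. Among the genes that act at origins it was 0.74 for CDC6, 0.73 for ORC6 and 0.59 for MCM10. For the CDK2 activators CDC25A and CCNE2 it was 0.76 and 0.61. For the histone chaperone gene CHAF1B it was 0.64, for the ligase receptor gene DTL 0.62 and for the thymidylate synthase gene TYMS 0.61. The groups have 3 arrays each, too few for a check of single outlying arrays within a group.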

How the results depend on the processing

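The count of members called in the axis was 9 to 13 for every change of probe set, scaling, filter, prior, weights or groups fitted, in both comparisons of the axis. It moved with the threshold: testing against a fold of 1.5 gave 2 members higher in the axis against control (in place of 12) and 2 against the peripheral locations (in place of 13). The adjusted p alone gave 26 higher and 3 lower against control, and 29 higher and 3 lower against the peripheral locations. Leaving out 1 array at a time gave 10 to 13 and 11 to 15 members higher by both thresholds, and 24 to 28 and 28 to 30 by the adjusted p alone, with 2 to 3 lower. Every peripheral count stayed at 0.

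Among single members, signs turned only for those near zero in the axis. Some member medians of the peripheral locations also changed sign with the scaling, as given above. CDK2 was -0.0070 with each array centred on its median, -0.0034 after quantile normalization, -0.0074 without control replicate 3 and -0.00072 without axis replicate 2. MCM4 was 0.066 after quantile normalization and 0.011 with array weights, and 0.011, 0.0086 and 0.049 without control replicate 1, control replicate 3 and axis replicate 1. CCNE1 was 0.0056 without axis replicate 1, and MCM5 was -0.026 without axis replicate 3. Leaving out 1 array gave -0.0074 to 0.061 for CDK2, -0.040 to 0.049 for MCM4, -0.064 to 0.0056 for CCNE1 and -0.026 to 0.085 for MCM5. CCNE2 went under 1.5-fold with centring (0.56) and quantile normalization (0.55), and MCM7 passed it with the latter (0.59).

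With the replicate number as a block, 12 members were higher and 0 lower in the axis, and 26 and 3 by the adjusted p alone, so no call count against control changed. The values showed no pairing by replicate number. Over 45 pairs of same-numbered arrays the correlation of deviations ran from -0.36 to 0.22, with a median of -0.0015. Over 90 pairs of different-numbered arrays the median was -0.0082. Such correlations cannot tell whether same-numbered arrays came from the same experiment.

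With 3 arrays a group, the median standard error of a member was 0.081 on the log2 scale. In the axis against control, the smallest member change called by the adjusted p alone was 0.22 (CHAF1A). The largest not called was 0.35 (GINS2), so changes of up to that size could be missed. Array values compress folds of dim genes, a single time after irradiation was measured, and RMA sets all arrays to a common distribution, so a change in total RNA per cell is not visible. Transcript levels alone say nothing of replication itself.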
